A study of Mus musculus with 16 samples.

Results

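Hox genes encode homeodomain transcription factors that give cells their position along the body axis, and in the mouse 39 of them lie in 4 clusters, HoxA to HoxD. The clusters arose by duplication, so that genes at the same place in different clusters form paralogue groups, numbered 1 to 13. All genes of a cluster are transcribed in the same direction, with group 13 at its upstream end and group 1 at its downstream end. Genes near the group 1 end are known for the hindbrain and neck, and genes near the group 13 end for limbs, trunk end and urogenital tract. At HoxD and HoxA, enhancers on both sides of the cluster are known to act over long distances on different sets of its genes. The members were chosen as protein-coding genes named Hoxa, Hoxb, Hoxc or Hoxd with a number only (GENCODE vM21), which gave 39 of the 21755 protein-coding genes of chromosomes 1 to 19 and X, and the loops described are those with an anchor in or within 1 Mb of a cluster, 46 of 6798 listed loops (0.677%).

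The loops came from Micro-C, in which fixed chromatin is digested to nucleosomes by micrococcal nuclease and neighbouring ends are ligated, so that read pairs record contacts. Whole cochleae of newborn mice (postnatal day 0 in the labels, 0 or 1 in the methods) were used, with no genotype or treatment given, and 4 replicates were merged before loops were called in 10 kb bins. The sources differ on whether all 4 are biological or 1 of them is technical. The list thus holds no value per replicate, and no error between replicates and no test can be given for any value here. Intervals are 95% Wilson intervals over loops and cover counting error only. The read depth behind a loop is not in the list, cell types of the cochlea cannot be told apart in whole tissue, and the list holds no expression, so the tissue label could not be checked against marker genes. Each loop has a false discovery rate (FDR), below 0.1 for all, and its distance was taken from one bin start to the other.

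In mm10 the clusters were HoxA at chr6:52155590-52260880 (105291 bp, 11 genes), HoxB at chr11:96194316-96368256 (173941 bp, 10 genes), HoxC at chr15:102921103-103036852 (115750 bp, 9 genes) and HoxD at chr2:74668310-74765142 (96833 bp, 9 genes). HoxA lies on the minus strand and the other clusters on the plus strand. HoxA had 16 loops in or within 1 Mb, HoxD 14, HoxB 8 and HoxC 8. Among all protein-coding genes, each taken with 1 Mb to each side, the median was 7 loops (quartiles 4 and 10). Fewer loops than at HoxA were found around 97.9% of those genes, fewer than at HoxD around 93.7%, and fewer than at HoxB or HoxC around 54.4%. HoxA and HoxD thus stood in the upper part of that range and HoxB and HoxC near its middle. Loops nearest the 1 Mb limit were a pair at 996 kb from HoxA, with distances of 200 kb and 340 kb, and the nearest outside it lay at 1006 kb and 1029 kb from HoxA.

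Of the 46 loops, 18 had an anchor inside a cluster, 28 had both anchors in one flank, and none had both anchors inside a cluster or spanned one. Of the 18, 6 went to the group 13 side and 12 to the group 1 side, a split that became 5 and 5 with the smallest detection scale only and 2 and 8 at an FDR below 0.01. A loop with 1 anchor inside a cluster leaves it on one side by definition. Among windows of the same number of 10 kb bins, moved along the genome in steps of 10 kb, between 31.8% (HoxB length) and 38.4% (HoxD length) were spanned by at least 1 loop. At least as many loops were anchored in 0.187% of windows as in HoxA (6 loops), in 0.508% as in HoxD (5 loops), in 1.48% as in HoxB (5 loops) and in 16.6% as in HoxC (2 loops). These windows overlap each other, so the shares are a description. The shortest listed loop was 60 kb, so contacts between nearby genes of a cluster could not be in the list.

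**Figure D1:**
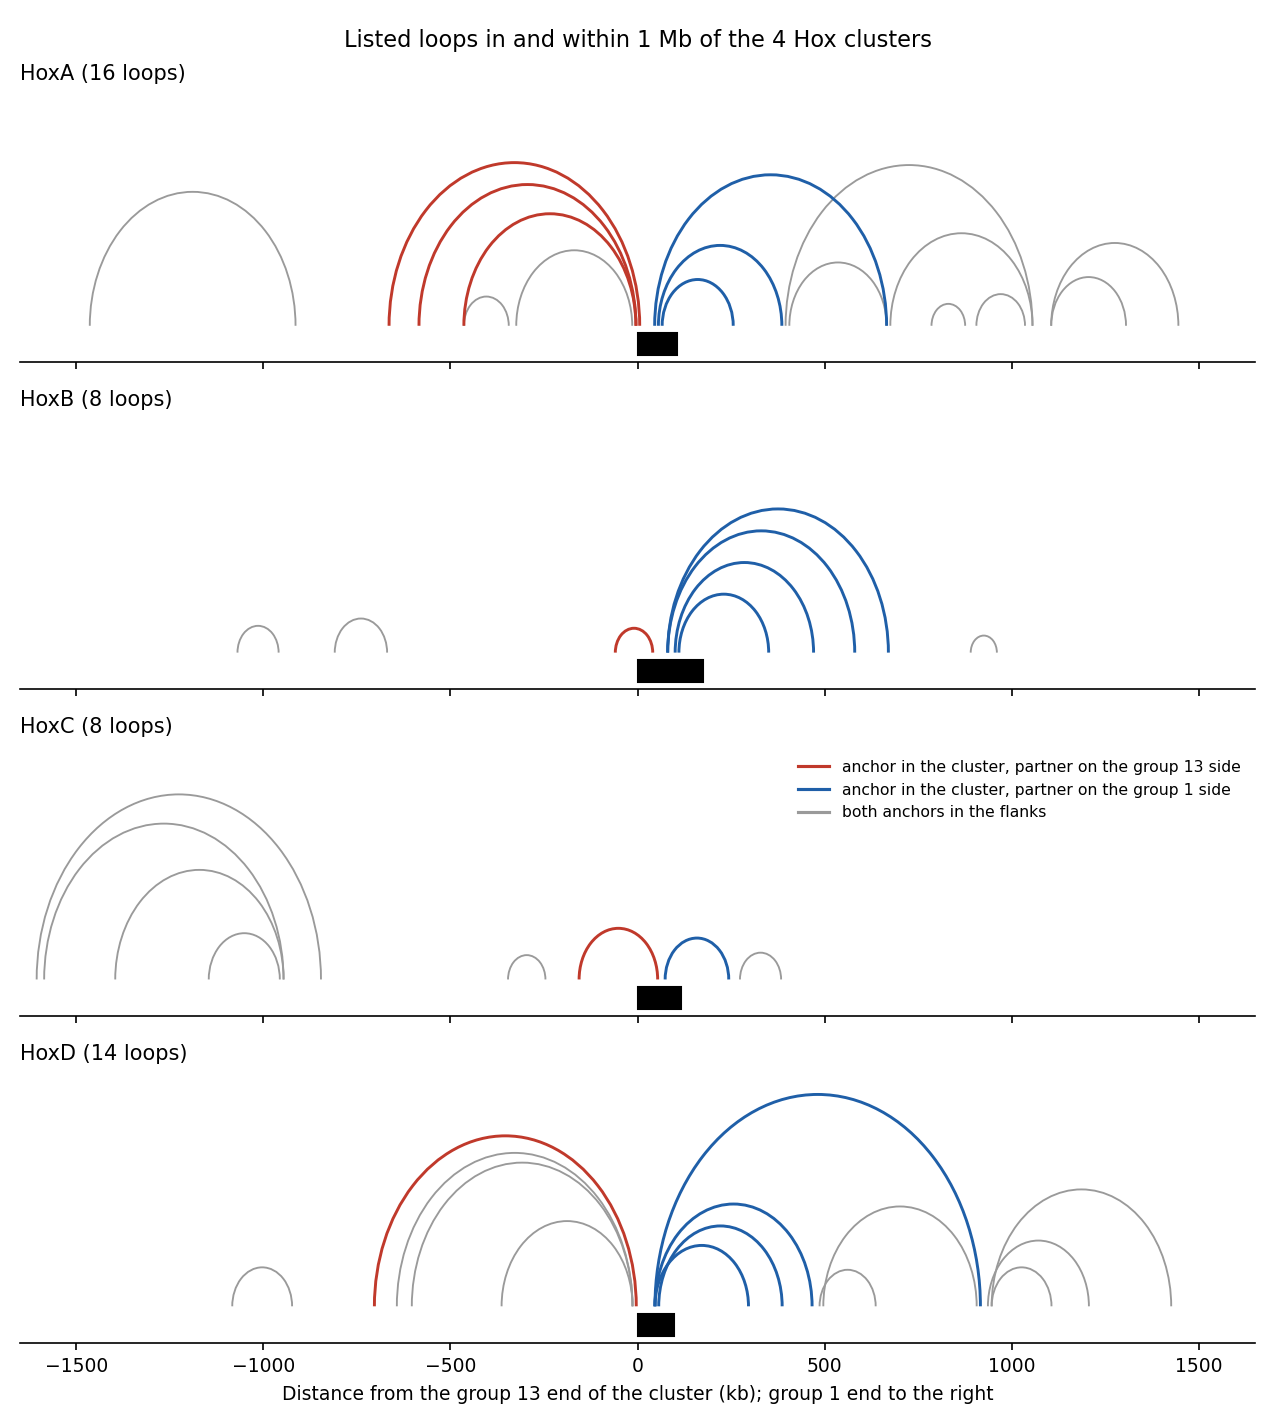
Arcs join the anchors of the 46 listed loops in and within 1 Mb of each cluster, with arc height proportional to loop distance. The horizontal axis gives the distance in kb from the group 13 end of the cluster (black bar), with the group 1 end to the right, so HoxA is drawn reversed. Red arcs (6 loops) leave the cluster on the group 13 side, blue arcs (12 loops) on the group 1 side, grey arcs (28 loops) join flank to flank, and no arc reaches from one side of a black bar to the other.

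The 18 loops anchored inside used 14 of the 53 bins of the clusters (26.4%), against 4.49% of all 10 kb bins of the genome that were anchors. Start sites of 14 of the 39 Hox genes (35.9%) lay in an anchor bin, against 7.10% of all protein-coding genes. Because neighbouring Hox genes can share a bin, these were 11 of 31 different bins (35.5%), against 7.23% of the bins with a coding start. The body of 18 Hox genes (46.2%) overlapped an anchor bin, against 24.1% of protein-coding genes. A Hox start site lay a median of 4191 bp from the nearest anchor bin, against 56646 bp for all protein-coding genes. Genes of a cluster lie close together and share its anchors, so these distances are not independent of each other. In HoxC, which had 2 loops anchored inside, every start lay within 48898 bp of an anchor bin. The median was not compared with that of other groups of neighbouring genes. A bin does not show which of the genes in it, or which stretch of DNA, makes the contact.

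By paralogue group, the start sites in anchor bins were those of Hoxa3 and Hoxd3, Hoxa4 and Hoxd4, Hoxa5 and Hoxb5, Hoxa6, Hoxb6 and Hoxc6, Hoxc8, Hoxb9 and Hoxc9, and Hoxa13 and Hoxd13. Groups 4 to 9 held 10 of these among 19 genes (52.6%), groups 1 to 3 held 2 of 8 (25%) and groups 10 to 13 held 2 of 12 (16.7%). Group 6 was covered in all 3 clusters that have it. Genes at both ends of the clusters could lie far from the anchors. Hoxb1 and Hoxd1 started 55752 and 32980 bp from the nearest anchor bin, and Hoxa2 and Hoxb2 25170 and 40525 bp. At the group 13 end, Hoxc13, Hoxb13 and Hoxc12 started 48898, 35685 and 33244 bp from it. The start site of Hoxa3 depends on the annotation, since 2 of its 4 transcripts began in an anchor bin, and so do those of Hoxd3, with 1 of 6, and Hoxc6, with 1 of 3. Conversely, 3 of 5 transcripts of Hoxa7 began in an anchor bin, although its gene start did not. Beyond the starts, the bodies of Hoxa7, Hoxb7, Hoxc5 and Hoxc10 overlapped an anchor bin. Their start sites lay 1854, 3378, 2558 and 3205 bp from it.

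**Figure D2:**
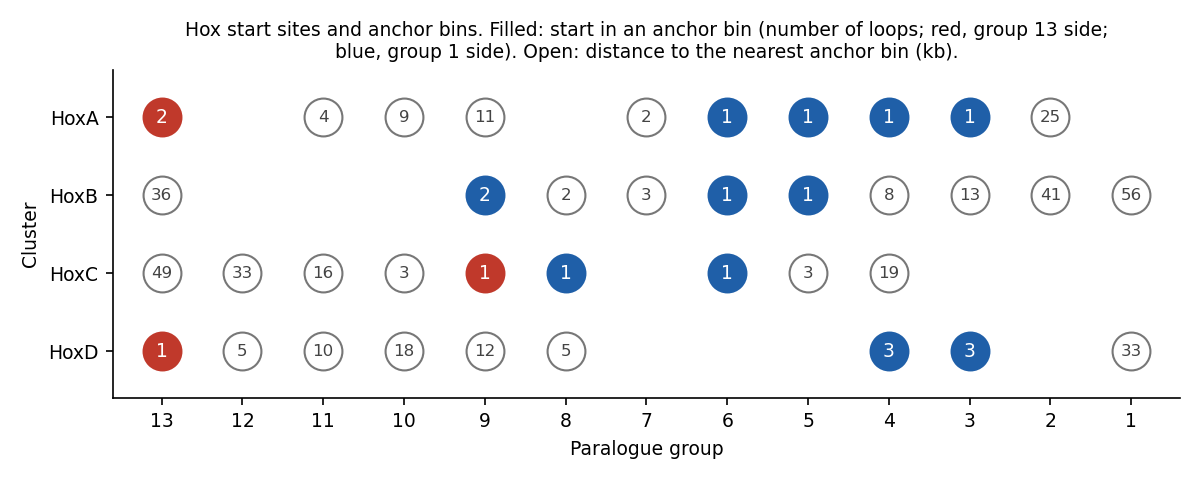
Each circle is 1 of 38 Hox genes, placed by paralogue group (horizontal, group 13 at the left) and cluster (vertical). Filled circles are the 14 genes with the start site in an anchor bin, with the number of loops of that bin (red, partner on the group 13 side; blue, partner on the group 1 side), and open circles give the distance to the nearest anchor bin in kb. Filled circles gather in groups 3 to 9 and at Hoxa13 and Hoxd13, and the circles of Hoxa2, Hoxb1, Hoxb2 and Hoxd1 are open.

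The remaining 21 genes had neither start nor body in an anchor bin. In HoxA, Hoxa9, Hoxa10 and Hoxa11 lay between the anchors that faced the group 13 side and those that faced the group 1 side. In HoxD, Hoxd8 to Hoxd12 lay in the same place, at 5013 to 18077 bp from the nearest anchor bin. In HoxB, Hoxb8 lay among the anchors, Hoxb13 before the first of them, and Hoxb1 to Hoxb4 beyond the last. In HoxC, Hoxc11, Hoxc12 and Hoxc13 lay before the first anchor and Hoxc4 beyond the last. Hoxa2 and Hoxd1 likewise lay beyond the last anchor of their clusters. The stretch without an anchor at the group 1 end measured about 34 kb in HoxA, 58 kb in HoxB, 37 kb in HoxC and 35 kb in HoxD. At the group 13 end, HoxB and HoxC likewise had no anchor over the 35685 bp from the start of Hoxb13 and the 48898 bp from the start of Hoxc13, whereas HoxA and HoxD had an anchor there.

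In each cluster, all anchors with a partner on the group 13 side lay nearer the group 13 end than all anchors with a partner on the group 1 side. The gap between the centres of the nearest such anchors was 40 kb in HoxA, 40 kb in HoxB, 20 kb in HoxC and 50 kb in HoxD. The 9 anchor bins of the 12 loops to the group 1 side fell at 43.6% to 63.8% of the cluster's length from its group 13 end, in all 4 clusters. The 5 anchor bins of the 6 loops to the group 13 side ran from just outside the cluster's end (their centre at -3.91%) to 46.6%. The same uncrossed order was frequent elsewhere: of all windows of these lengths with loops to both sides, 86.6% to 87.9% had it, so 4 of 4 clusters is near the background. Windows with loops to both sides were themselves 6.49% to 12.3% of all windows.

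**Figure D3:**
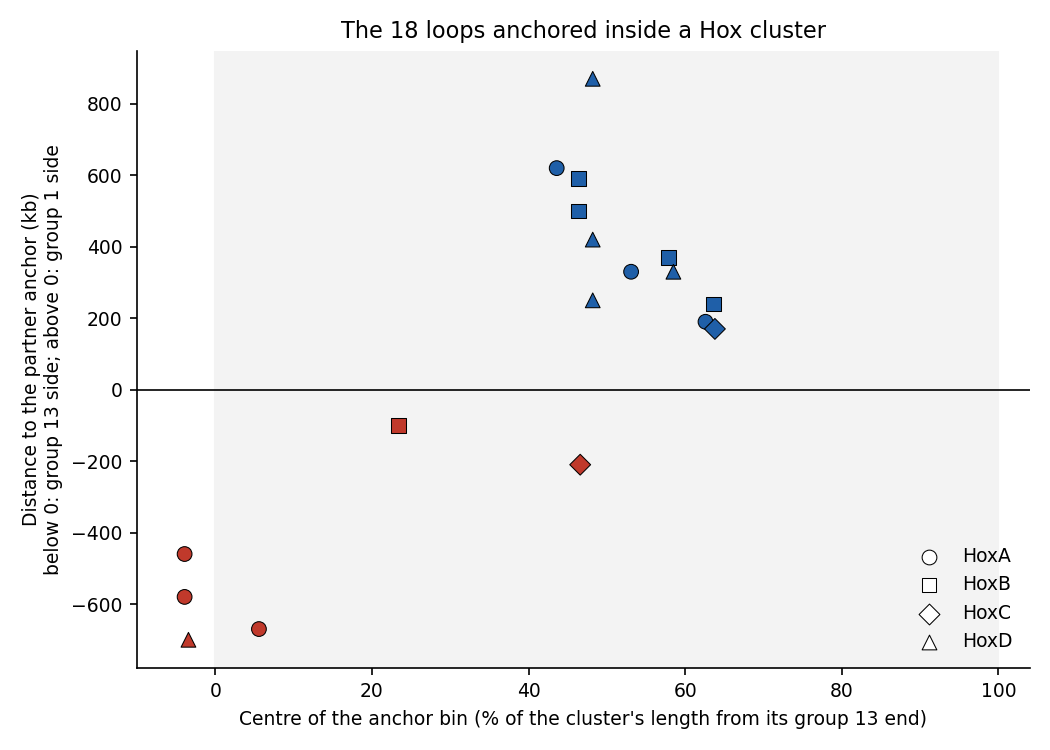
Each point is 1 of the 18 loops anchored inside a cluster. The horizontal axis gives the centre of the cluster anchor in percent of the cluster's length from its group 13 end (grey area, 0 to 100%), and the vertical axis the loop distance in kb, below 0 for partners on the group 13 side (red) and above 0 for partners on the group 1 side (blue). Marker shape gives the cluster. Blue points lie between 43.6% and 63.8%, and no point lies further toward the group 1 end.

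HoxA had 3 loops to each side. The bin chr6:52260001-52270000 holds the start of Hoxa13, a gene of the limb and urogenital tract, and that of the noncoding RNA gene Hottip. It looped to chr6:52720001-52730000 in Tax1bp1, an autophagy adaptor gene, 460 kb away (FDR 0.0153), and to chr6:52840001-52850000 in Jazf1, a zinc finger gene, 580 kb away (FDR 0.0107). The next bin, chr6:52250001-52260000, overlaps the body of Hoxa13 and looped 670 kb to chr6:52920001-52930000, also in Jazf1 (FDR 0.0095). The loops into Jazf1 were longer than the third quartile of all listed loops, 500 kb, and the loop into Tax1bp1 was not.

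The other 3 HoxA anchors lay side by side and reached the genes beyond the group 1 end. The bin of Hoxa4 (chr6:52190001-52200000) looped 190 kb to chr6:52000001-52010000 in Skap2, an adaptor gene of Src kinase signalling (FDR 0.000304). The bin of Hoxa5 and Hoxa6 (chr6:52200001-52210000) looped 330 kb to chr6:51870001-51880000, also in Skap2 (FDR 0.00111). The bin with the most upstream start of Hoxa3 (chr6:52210001-52220000) looped 620 kb to chr6:51590001-51600000 in Snx10, a sorting nexin gene of endosomes (FDR 0.0798). The anchors were nested: the nearer an anchor lay to the group 1 end, the nearer its partner. The Hoxa3 loop had the weakest support of the 18, with a lower FDR in 92.6% of all listed loops.

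In HoxB, 1 loop left to the group 13 side. It joined chr11:96230001-96240000, in the long stretch between Hoxb13 and Hoxb9 that holds no coding gene, to the start of Ttll6, a tubulin-modifying enzyme gene, at chr11:96130001-96140000 (100 kb, FDR 0.0108). The other 4 loops reached beyond the group 1 end and were nested as in HoxA. The bin of Hoxb9 (chr11:96270001-96280000), a gene of the thoracic region, looped 500 kb to the start of Snx11 (chr11:96770001-96780000, FDR 0.0318) and 590 kb to Copz2, a coatomer subunit gene (chr11:96860001-96870000, FDR 0.0246). The bin of Hoxb6 (chr11:96290001-96300000) looped 370 kb into Skap1 (chr11:96660001-96670000, FDR 0.0318), and that of Hoxb5 (chr11:96300001-96310000) looped 240 kb into Skap1 (chr11:96540001-96550000, FDR 0.00301).

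HoxA and HoxB kept pairs of paralogous neighbours when the clusters were duplicated. The pairs Skap2 and Skap1, and Snx10 and Snx11, held 3 of the 6 HoxA partners and 3 of the 5 HoxB partners. The other partners lay in Tax1bp1 and Jazf1 at HoxA and in Ttll6 and Copz2 at HoxB. Paralogues of these genes beside other clusters were not counted, and no background was counted for the pairs. Skap2 beside HoxA and Skap1 beside HoxB held partners of anchors with starts of groups 4 to 6 (Hoxa4, Hoxa5 and Hoxa6, and Hoxb5 and Hoxb6). Snx11 held a partner of the Hoxb9 bin. Snx10 held the partner of the bin with the most upstream start of Hoxa3, which also overlaps Hoxa7 and holds 3 of its 5 transcript starts. Neither gene is of the same group as Hoxb9, and the bin does not show which of them makes the contact. In both clusters the Skap partner was nearer than the Snx partner, at 190 kb and 330 kb against 620 kb in HoxA and at 240 kb and 370 kb against 500 kb in HoxB. This order is also the order of the genes along the chromosomes.

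HoxC had 1 loop to each side. The bin of Hoxc9 (chr15:102970001-102980000) looped 210 kb to chr15:102760001-102770000, outside any coding gene (FDR 0.0429). This Hoxc9 bin also holds Mir196a-2 and overlaps the long model of Hoxc5 and the end of Hoxc10. The bin of Hoxc8 and Hoxc6 (chr15:102990001-103000000) looped 170 kb to the start of Smug1, a DNA repair gene that removes uracil, at chr15:103160001-103170000 (FDR 0.000148). Only 9.36% of listed loops had a lower FDR than this one. The anchors lay 20 kb apart from start to start.

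HoxD had 1 loop to the group 13 side and 4 to the group 1 side. The bin of Hoxd13 (chr2:74660001-74670000), the digit gene, looped 700 kb to chr2:73960001-73970000 (FDR 0.00163). The bin with starts of Hoxd3 and Hoxd4 (chr2:74710001-74720000) looped 250 kb to chr2:74960001-74970000 (FDR 0.00131), 420 kb to chr2:75130001-75140000 (FDR 5.66e-05) and 870 kb to chr2:75580001-75590000 (FDR 5.66e-05). The next bin, chr2:74720001-74730000, looped 330 kb to chr2:75050001-75060000 (FDR 0.00163). It holds Mir10b and the start of the coding gene Gm28230, and it overlaps the bodies of Hoxd3 and Hoxd4. Unlike in HoxA and HoxB, these loops were not all nested. The Mir10b bin lay nearer the group 1 end, yet its partner lay beyond that of the 250 kb loop. How often nesting occurs elsewhere was not counted. All 5 partners of HoxD lay outside coding genes. Of the 18 partner bins of all clusters, HoxD included, 12 lay in a coding gene and 3 held a coding start. The share of all anchor bins that lie in a coding gene was not counted, so these numbers have no background beside them. The Hoxd3 and Hoxd4 bin was the only cluster bin with 3 loops, a number reached by 1.47% of all anchor bins, and its loops of 420 kb and 870 kb had the lowest FDR of the 18 (5.34% of listed loops had a lower one). The 870 kb loop was also the longest of the 46.

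**Figure D4:**
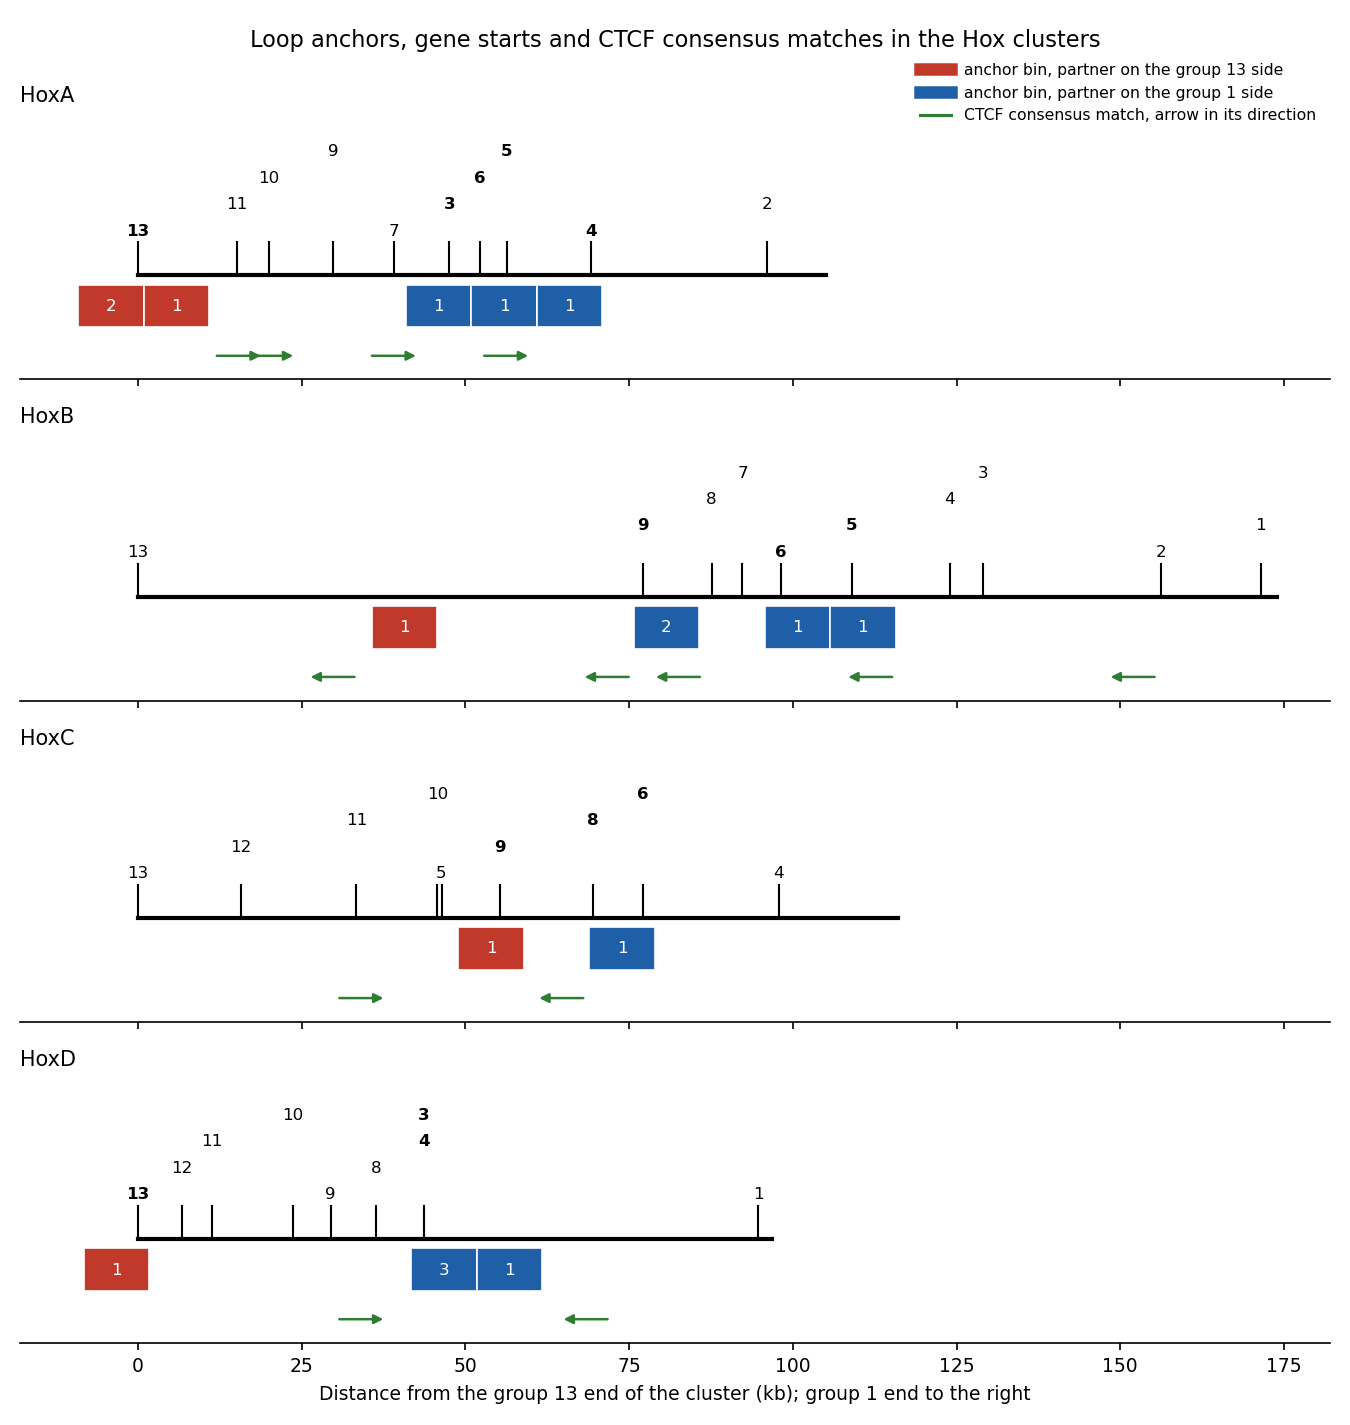
Each panel shows a cluster from its group 13 end (0 kb) toward its group 1 end. Ticks are the starts of 38 genes with the paralogue group, in bold where the start lies in an anchor bin. Boxes are 10 kb anchor bins with their number of loops (red, partner on the group 13 side; blue, group 1 side), and green arrows are CTCF consensus matches, drawn longer than they are, in the direction of the match. Red boxes lie left of blue boxes in all 4 panels, and the arrows all point right in HoxA (4 matches) and all left in HoxB (5 matches).

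Loops also began just beyond the group 13 ends of HoxD and HoxA. The bin of Evx2 (chr2:74650001-74660000), the even-skipped homeobox gene beside Hoxd13, looped 350 kb, 590 kb and 630 kb to the group 13 side (FDR 0.000635, 0.000615 and 0.014). Together with the Hoxd13 loop, 4 loops thus left from 2 neighbouring bins at this end of HoxD, and all landed outside coding genes. At HoxA, chr6:52270001-52280000, next to the Hoxa13 bin, looped 310 kb into Hibadh, a gene of valine breakdown (FDR 0.0015). If the clusters were widened by 10 kb, these 4 loops counted as anchored inside, and their number rose from 18 to 22, with 10 to the group 13 side and 12 to the group 1 side.

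The 28 flank loops were split evenly, 14 on each side, but not within clusters. On the group 13 and group 1 side there were 3 and 7 at HoxA, 2 and 1 at HoxB, 5 and 1 at HoxC, and 4 and 5 at HoxD. The number of coding genes that start within 1 Mb on these sides was 4 and 5 at HoxA, 21 and 21 at HoxB, 33 and 16 at HoxC, and 5 and 3 at HoxD. HoxA and HoxD, with few genes around them, had the more loops.

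On the group 1 side of HoxA, the flank loop with the lowest FDR joined Snx10 and Skap2 (chr6:51590001-51600000 and chr6:51850001-51860000, 260 kb, FDR 1.93e-05). Its Snx10 bin is the partner of the Hoxa3 bin, and its Skap2 bin is separated by 10 kb from the partner of the Hoxa5 and Hoxa6 bin. A further loop of 380 kb led from Snx10 to chr6:51200001-51210000 (FDR 0.000535). From the same bin a loop of 660 kb reached Skap2 at chr6:51860001-51870000 (FDR 0.000978), next to the partner of the Hoxa5 and Hoxa6 bin. On the group 13 side of HoxA, the lowest FDR after the Hibadh loop belonged to a loop of 550 kb between chr6:53170001-53180000 and chr6:53720001-53730000 (FDR 0.0268). Altogether 2 flank loops shared a bin with a partner of a cluster anchor, both at HoxA, the other one joining Hibadh to the Tax1bp1 bin (120 kb, FDR 0.0982).

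At HoxD, the lowest FDR on the group 13 side belonged to a loop of 160 kb from the start of Chrna1, a subunit gene of the muscle acetylcholine receptor, to Chn1 (FDR 1.5e-05), and next came the 590 kb loop of Evx2. On its group 1 side these were loops from chr2:75610001-75620000 to chr2:75770001-75780000 (160 kb, FDR 0.000502) and from chr2:75600001-75610000 into Agps, a gene of ether lipid synthesis (270 kb, FDR 0.00837). From bin start to bin start, their left anchors lay 30 kb and 20 kb beyond the partner bin of the 870 kb loop. A loop of 410 kb from chr2:75160001-75170000 ended at chr2:75570001-75580000, next to that partner bin (FDR 0.0857). At HoxB the loops began at Dlx3, a homeobox gene (110 kb, FDR 0.000142), and at Slc35b1, a nucleotide sugar transporter gene (140 kb, FDR 0.00655), and 1 loop on the group 1 side ended at Tbkbp1 (70 kb, FDR 0.0337). At HoxC they joined Krt72, a keratin gene, to chr15:101960001-101970000 (190 kb, FDR 0.000148) and chr15:101330001-101340000 to chr15:101970001-101980000 (640 kb, FDR 0.00202), and 1 on the group 1 side joined Cbx5, the gene of a heterochromatin protein, to Gpr84 (110 kb, FDR 0.0119).

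The 46 loops had a median distance of 330 kb (quartiles 162 kb and 538 kb), against 280 kb (160 kb and 500 kb) for all listed loops. The loops anchored inside ranged from 100 kb to 870 kb, with a median of 520 kb over the 6 to the group 13 side and 350 kb over the 12 to the group 1 side. The ranges of both sides, 100 kb to 700 kb and 170 kb to 870 kb, overlapped widely. At an FDR below 0.05, 40 of 46 loops (87.0%, interval 74.3% to 93.9%) were kept, against 78.8% of all listed loops, which lies within that interval. Of the 18 loops anchored inside, 17 were kept, all but the Hoxa3 loop.

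CTCF binds DNA at many loop anchors, and its sites there often face each other. Orientation was read from the CTCF consensus (14 bases, at most 1 mismatch), and a match does not show that CTCF was bound. Such a match was found in 20.8% of all 10 kb bins, in 48.4% of the anchor bins of the list and in 38 of the 80 anchor bins of the Hox loops (47.5%). Within the clusters, 3 of the 14 anchor bins had one, the bin of Hoxa5 and Hoxa6, the bin of Hoxb9 and the bin of Hoxb5. These 3 matches are given with 10 bases to each side because the direction of the loops can be read against them, on the strand of the match, with the matched bases in capitals.
Hoxa5 and Hoxa6 bin (reverse strand, chr6:52204647-52204680): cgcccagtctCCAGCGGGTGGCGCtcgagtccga
Hoxb9 bin (reverse strand, chr11:96276745-96276778): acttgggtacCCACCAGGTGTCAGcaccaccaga
Hoxb5 bin (reverse strand, chr11:96306112-96306145): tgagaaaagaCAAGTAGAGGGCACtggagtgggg

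The match of the Hoxa5 and Hoxa6 bin pointed toward its partner in Skap2, and the matches of the Hoxb9 and Hoxb5 bins pointed away from their partners. Counted by loops, 1 of 4 cluster ends with a clear orientation pointed to the partner, against 81.4% of such ends in the whole list. The Hoxb9 bin counts for both of its loops, so these 4 ends come from 3 bins. Just outside HoxD, the match of the Evx2 bin pointed to the partners of all its loops. With clusters widened by 10 kb these ends would count as well, so the count depends on where the cluster edge is drawn. Among the partners, 7 of 9 ends with a clear orientation pointed back to the cluster, which is near the 81.4% of the whole list. Of these, the Copz2 bin was counted by its best match and also held a forward match with 1 mismatch that pointed away. The best matches of the partners are shown because their directions differ. Those at Skap2, Copz2 and beyond the group 1 end of HoxD face the cluster, and those in Jazf1 do not.
Skap2, partner of Hoxa4 (forward strand, chr6:52008965-52008998): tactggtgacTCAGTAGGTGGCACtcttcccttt
Skap2, partner of Hoxa5 and Hoxa6 (forward strand, chr6:51876099-51876132): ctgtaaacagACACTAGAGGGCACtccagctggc
Jazf1, partner of the Hoxa13 start (forward strand, chr6:52843217-52843250): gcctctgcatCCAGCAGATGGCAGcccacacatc
Jazf1, partner of the Hoxa13 body (forward strand, chr6:52927121-52927154): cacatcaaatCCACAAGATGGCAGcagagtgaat
Copz2, partner of Hoxb9 (reverse strand, chr11:96860757-96860790): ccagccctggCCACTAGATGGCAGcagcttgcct
Partner of Hoxd13 (forward strand, chr2:73965780-73965813): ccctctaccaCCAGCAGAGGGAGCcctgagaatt
Partner of Hoxd3 and Hoxd4 at 250 kb (reverse strand, chr2:74964527-74964560): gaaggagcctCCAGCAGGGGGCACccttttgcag
Partner of the Mir10b bin (reverse strand, chr2:75055353-75055386): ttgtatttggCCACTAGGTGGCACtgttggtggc
Partner of Hoxd3 and Hoxd4 at 420 kb (reverse strand, chr2:75138079-75138112): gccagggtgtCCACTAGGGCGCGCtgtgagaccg

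All 4 loops of HoxD with a match at the partner thus had it facing the cluster, while neither HoxD nor HoxC had a match in an anchor bin of the cluster. A clear orientation at both anchors was found for 10 of the 46 loops. Of these, 5 (50%, interval 23.7% to 76.3%) were convergent, with the matches facing each other, against 68.3% of the 1502 such loops in the list, a value within the interval. Among the loops anchored inside, that left 1 convergent loop of 2, the loop from Hoxa5 and Hoxa6 to Skap2. Over the whole clusters, HoxA held 4 matches that all pointed to the group 1 side, HoxB 5 that all pointed to the group 13 side, and HoxC and HoxD 2 each, 1 in either direction. In HoxA these lay in the bodies of Hoxa3, Hoxa7, Hoxa10 and Hoxa11, and only the one in Hoxa3 lay in an anchor bin.

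The match of the Hoxa5 and Hoxa6 bin lies in an intron of the long Hoxa3 model and 76 bp from the start of Hoxa5. It falls in the promoter of Hoxa5 as RefSeq gives it (GRCm38.p6, chr6:52204538-52204837, minus strand, 300 bases that run with the gene), at bases 168 to 181, and is shown because it is a match inside the promoter of a Hox gene whose start lies in an anchor bin, with the matched bases in capitals. The other 6 Hox promoters found in RefSeq whose start lies in an anchor bin held no consensus match.
Hoxa5 promoter: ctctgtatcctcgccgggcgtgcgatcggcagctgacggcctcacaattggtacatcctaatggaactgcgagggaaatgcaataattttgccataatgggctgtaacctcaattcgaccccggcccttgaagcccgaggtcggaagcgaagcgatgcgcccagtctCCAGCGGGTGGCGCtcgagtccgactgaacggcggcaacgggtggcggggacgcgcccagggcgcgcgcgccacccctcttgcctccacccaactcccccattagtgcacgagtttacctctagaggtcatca
RefSeq promoters were matched for 22 of the 39 genes (24 sequences, since some genes have more than 1 start). The Hoxa5 promoter was the only one of them with a match on either strand, against 2.28% of all 32851 promoters. The 24 Hox promoters had a median GC content of 57.7% and a median of 14.5 CpG, against 52.7% and 7 for all promoters. Anchor bins of the loops anchored inside had a median GC content of 46.3%, against 44.1% for all anchor bins.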

How the data were processed

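Micro-C of whole mouse cochlea was analysed from the loop list deposited for 4 merged replicates. The authors aligned reads to mm10 with BWA-MEM, used pairtools to remove duplicates, kept chimeric pairs and ran Mustache on bins of 10 kb. The labels also name Juicer, and versions were not given in the sources used here. The q-value (FDR) of each loop and its detection scale, a score of the caller, were deposited by the authors and used as given, as were the positions of the bins. ATAC-seq and CUT&RUN samples were not analysed here. The depth per replicate is not in the list, so precision is given as 95% Wilson intervals over loops only. The paper reports unequal depths, with the most read pairs in replicate 4, which its results call technical.

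Bins were set against GENCODE vM21 and the GRCm38.p6 sequence, the build of mm10, with Python 3.11.15, numpy 2.4.6 and pandas 2.3.3. Plots were made in matplotlib 3.10.9. A cluster ran from its first to its last Hox gene. A start site was the 5′ end of the gene. The best match of the CTCF consensus (14 bases, at most 1 mismatch, both strands) gave a bin's orientation, and bins with equal matches on both strands had none. Windows with over 10% unknown bases were left out. All values are descriptions without a test, since the list holds no value per replicate. Counting rules were tested on simulated data.

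All 39 Hox genes were counted. Values of some single genes are not reported here. Loops anchored inside a cluster, genes starting at their partners and the 2 flank loops of lowest FDR on each side were named, with further flank loops in the same or nearby bins. Members, gene lists and rules were chosen with earlier results of these data known. The alternatives were stricter FDR thresholds, the smallest detection scale only, merging of calls within 100 kb, flanks of 500 kb and 2 Mb, wider clusters, other start sites, outer distances and other mismatch limits.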

Additional observations from a re-analysis of the deposited data

How the results depend on the processing

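No paired analysis was possible because loops were called on merged replicates and the list holds no values per replicate. Of 59 alternative values, 40 stayed near the reported one (counts within 1.5 times, the median distance within its quartiles, the share at an FDR below 0.05 within its interval) and 19 did not. At an FDR below 0.01, 25 of the 46 loops were left, 10 of them anchored inside, with 9 flank loops on the group 13 side, 6 on the group 1 side and 9 Hox start sites in anchor bins. With the smallest detection scale only, 29 loops were left, 10 anchored inside and 9 flank loops on the group 13 side. A flank of 500 kb gave 29 loops, 6 and 5 flank loops on the group 13 and group 1 side and 3 convergent pairs of 5. A flank of 2 Mb gave 76 loops, 31 and 27 flank loops and 8 convergent pairs of 14. These settings hold fewer or more loops by construction. With start sites counted up to 10 kb from an anchor bin, 25 Hox genes had one. No mismatch left 0 pairs with a clear orientation and so 0 convergent ones, and at most 2 mismatches gave 9 of 19. The alternatives for spanning loops could only keep their count at 0. At an FDR below 0.01, 2 clusters still had loops to both sides, and with the smallest scale or merged calls 3 had. The loops anchored inside split 5 and 5 between the group 13 and group 1 side with the smallest scale, and 2 and 8 at an FDR below 0.01.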

Other observations

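Genes around the clusters and genes known to act on Hox genes were also looked up. Of 30 listed neighbours of the clusters, 6 (20%) started in an anchor bin, Evx2, Snx11, Ttll6, Smug1, Cbx3 and Atp5g2, against 7.10% of all protein-coding genes. Most of these neighbours lie in the windows described above, so this count is not independent of the loops given there. The list was also written with earlier results of these data known. Snx11, Ttll6 and Smug1 start in partner bins of loops already described. The 20% therefore cannot be read as a result against the 7.10%. Cbx3, a heterochromatin protein gene beside HoxA, had a flank loop of 90 kb (FDR 0.0793). Atp5g2, an ATP synthase subunit gene beside HoxC, had one of 100 kb (FDR 0.0237). Evx1, the even-skipped gene beside Hoxa13, started 33498 bp from the nearest anchor bin, whereas its paralogue Evx2 beside Hoxd13 had 3 loops.

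Of 30 listed regulators and cofactors of Hox genes, 7 (23.3%) started in an anchor bin, against the same 7.10% of all protein-coding genes. This list too was written with earlier results of these data known. Cdx2, a homeobox gene upstream of trunk Hox genes, had a loop of 610 kb (FDR 0.0142). Among the cofactors that bind DNA with Hox proteins, Meis1 had loops of 140 kb (FDR 0.00097) and 1740 kb (FDR 0.0784) and Pbx3 one of 410 kb (FDR 0.0783). Among Polycomb genes, Eed had a loop of 430 kb (FDR 0.0236), Cbx8 one of 150 kb (FDR 0.0449) and Bmi1 loops of 300 kb and 640 kb (FDR 0.0738 and 0.0565). The retinoic acid genes Rara, Rarb, Rarg, Cyp26a1, Cyp26b1 and Cyp26c1 had no start site in an anchor bin, with Cyp26a1 the nearest at 2203 bp.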
